A study of Homo sapiens with 10 samples.

Results

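The interferon response genes and double-stranded RNA sensors described here are 37 human genes taken by gene name from the deposited expression table. The table lists 64940 genes, and 40 of its entries carry these names, because IFI27, IRF7 and IRF9 each have a second entry that is listed at 0 in all libraries. RNA-seq had been performed on cells derived from H9, an established human embryonic stem cell (hESC) line, as 2 control libraries and 2 libraries overexpressing DAZL (oeDAZL), a germ cell-specific RNA-binding protein. The question addressed was how DAZL affects the transcriptome of human primordial germ cell-like cells (hPGCLCs), and the values are TPM, a measure of abundance per transcript length that allows genes to be compared with each other. The control libraries are labelled wild type and as spontaneously differentiated cells, whereas the oeDAZL libraries are labelled as hPGCLCs. The study's methods describe BMP4 and BMP8a, lentiviral delivery of DAZL with GFP or of GFP alone, and a cell sort. The labels do not say whether the control cells of these libraries received the BMPs or the GFP virus, so a difference in these and the effect of DAZL cannot be told apart. The labels also do not say that replicates came from separate cultures, so p-values measure the spread between these samples, which may be technical.

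Cells detect foreign or misplaced double-stranded RNA through cytoplasmic helicases such as RIG-I (DDX58) and MDA5 (IFIH1) and through the endosomal receptor TLR3, whose signals lead to the transcription factors IRF3 and IRF7 and to production of type I interferon. Secreted interferon binds its receptor and, through the kinases JAK1 and TYK2, activates a complex with STAT2 and IRF9 that binds interferon-stimulated response elements (ISREs) in the promoters of effector genes. The effectors degrade RNA, block translation, hold budding virus at the membrane or attach the ubiquitin-like protein ISG15 to other proteins. Pluripotent stem cells are known for a weak interferon response and for constitutive expression of a few effectors, among them the IFITM proteins.

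DAZL, the overexpressed gene, was listed at 0 and 0.0333 TPM in the controls and at 102 and 101 TPM in oeDAZL cells, matching the labels. Of the markers of germ cells, TFAP2C stood at 44.3 to 53.9 TPM in the 4 libraries, NANOS3, SOX17 and PRDM1 at 0.732 to 3.35 TPM, and DDX4 was listed at 0 throughout. NANOG was under 1 TPM in each library. KIT lay at 6.23 to 7.70 TPM, and EPCAM was at 422 and 392 TPM in the controls and at 494 and 476 TPM in oeDAZL cells. Read depth cannot be had from TPM, and precision was therefore taken from the 2 libraries per group. Mitochondrial transcripts took 12.6% to 14.1% of the TPM.

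The promoter sequences of 5 genes are shown. They were taken from 8 genes that hold the core of an ISRE and had an unadjusted P of at most 0.05 in limma. Windows of tested genes above that P, such as IFITM3, IFIT5 and ISG20, also hold the core and are not shown. Of the 5 genes shown, 4 were lower and 1 was higher in oeDAZL cells. Each sequence is 300 bases from RefSeq on GRCh38.p14. It runs from 250 bases before to 50 bases after the start site, on the strand of the gene. Capitals mark each match to the ISRE core GAAANNGAAA or its reverse complement, and overlapping matches run together. The windows lie at chr19:17405581-17405880 for BST2 (reverse strand), chr1:27672143-27672442 for IFI6 (reverse strand), chr1:1013247-1013546 for ISG15 (forward strand), chr10:89392373-89392672 for IFIT1 (forward strand) and chr4:88456869-88457168 for HERC5 (forward strand).
BST2: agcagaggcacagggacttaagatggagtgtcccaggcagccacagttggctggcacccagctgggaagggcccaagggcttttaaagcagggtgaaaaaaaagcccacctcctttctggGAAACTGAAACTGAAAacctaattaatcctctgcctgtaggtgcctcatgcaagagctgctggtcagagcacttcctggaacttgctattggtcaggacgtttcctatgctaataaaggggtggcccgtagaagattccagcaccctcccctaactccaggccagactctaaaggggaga
IFI6: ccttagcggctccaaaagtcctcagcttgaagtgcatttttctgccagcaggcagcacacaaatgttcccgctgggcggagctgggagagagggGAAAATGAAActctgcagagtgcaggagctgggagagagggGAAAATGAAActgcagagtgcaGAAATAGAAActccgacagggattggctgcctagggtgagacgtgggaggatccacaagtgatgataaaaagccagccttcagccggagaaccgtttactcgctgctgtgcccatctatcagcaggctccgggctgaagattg
ISG15: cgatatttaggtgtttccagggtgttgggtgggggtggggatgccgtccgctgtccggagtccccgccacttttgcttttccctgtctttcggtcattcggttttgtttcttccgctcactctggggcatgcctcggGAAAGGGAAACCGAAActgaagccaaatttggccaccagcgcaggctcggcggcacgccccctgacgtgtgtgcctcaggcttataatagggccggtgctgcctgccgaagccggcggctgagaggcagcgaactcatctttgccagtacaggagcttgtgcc
IFIT1: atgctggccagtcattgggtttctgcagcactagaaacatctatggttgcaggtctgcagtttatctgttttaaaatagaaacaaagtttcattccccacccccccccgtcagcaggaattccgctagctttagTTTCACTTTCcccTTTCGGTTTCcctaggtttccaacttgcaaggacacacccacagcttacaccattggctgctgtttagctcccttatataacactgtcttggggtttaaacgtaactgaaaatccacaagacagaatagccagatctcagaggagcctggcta
HERC5: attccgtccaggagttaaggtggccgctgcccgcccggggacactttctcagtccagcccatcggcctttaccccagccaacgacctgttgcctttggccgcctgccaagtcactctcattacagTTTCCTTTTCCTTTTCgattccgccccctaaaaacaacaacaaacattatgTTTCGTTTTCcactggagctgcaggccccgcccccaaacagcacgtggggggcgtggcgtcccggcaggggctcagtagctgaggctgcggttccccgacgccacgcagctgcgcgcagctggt

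A window was found for 28 of the 37 genes, and 18 of these (64.3%) hold the ISRE core on either strand. Among all 35116 windows of the table, 1255 (3.57%) hold it. The core of the gamma-activated site, TTCNNNGAA, occurs in 8 of the 28 windows (28.6%) and in 7.66% of all windows. In BST2 the matches begin 130 and 124 bases before the start site, and in ISG15 they begin 113 and 107 bases before it, so each pair overlaps. The HERC5 window, from the gene that was higher in oeDAZL cells, holds 3 matches beginning 125, 119 and 74 bases before the start, and IFI6 also holds 3. A match is a description of the letters only, and a window without a match can hold GAAA repeats at a closer spacing.

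**Figure D1:**
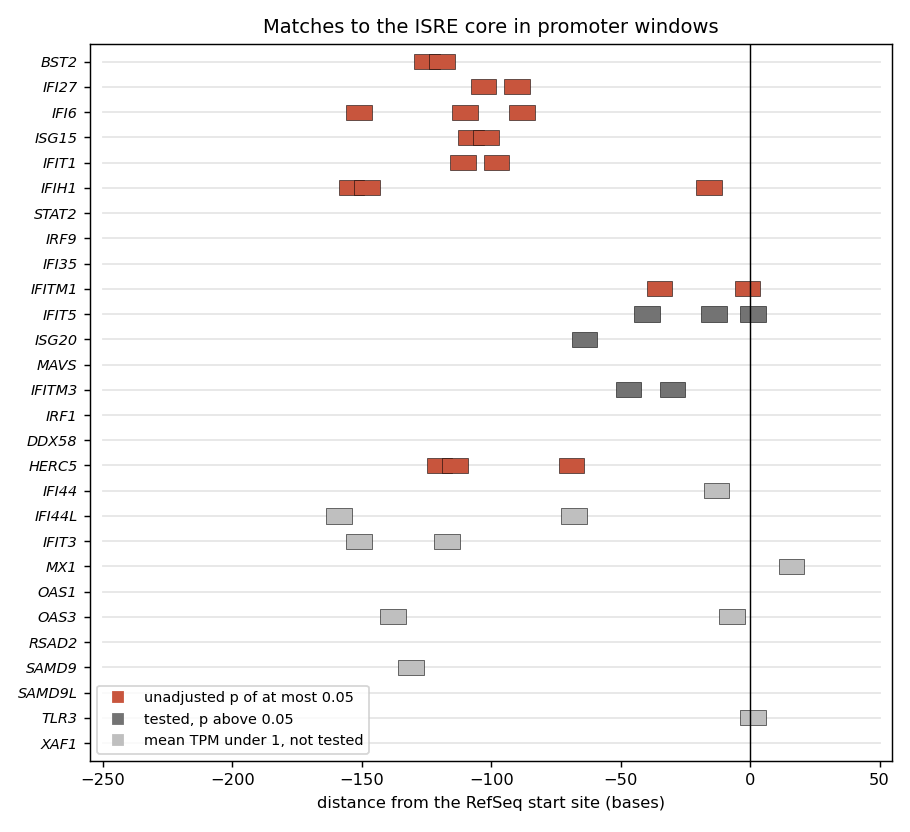
Positions of the matches to the ISRE core in the promoter windows of 28 genes, as distance from the RefSeq start site in bases, with 1 row per gene and 1 box per match. Red boxes belong to genes with an unadjusted P of at most 0.05, dark grey boxes to other tested genes and light grey boxes to genes with a mean TPM under 1; rows without a box hold no match.

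Most of the genes were expressed at a low level or not at all. A TPM above 0 was listed in at least 1 library for 35 of the 37 genes and in all 4 libraries for 28, and OASL and IFI44 were listed at 0 throughout. The minimum for testing, a mean of 1 TPM over the 4 libraries, was reached by 21 genes, of which 10 had a mean of at least 10 TPM and 11 a mean between 1 and 10 TPM. IFITM3 had the highest level, and it made up 37.2% of the summed TPM of the 37 genes in control replicate 1. The summed TPM of all 37 genes was 679 and 618 in the controls and 516 and 560 in oeDAZL cells.

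The oeDAZL libraries were compared with the control libraries by limma on log2(TPM + 1) over the 16687 genes whose mean reached 1 TPM, and fold changes are on that scale, which understates changes of low genes. The call rule asked for a 2-fold difference together with an unadjusted P of at most 0.05. By this rule BST2 and IFI27 fell in oeDAZL cells, and no gene of the group rose. Over all tested genes the same rule called 0.563% as lower and 0.126% as higher. Without the fold criterion, an unadjusted P of at most 0.05 was reached by 8 of the 21 genes with a lower level. HERC5 reached it with a higher level. Among all tested genes the shares were 15.2% lower and 5.02% higher. The 8 include IFIT1, which passed the minimum for testing through its control libraries. None of the 21 genes had a Benjamini-Hochberg adjusted p under 0.05 in limma, where 9 had an unadjusted P of at most 0.05, and the smallest adjusted p was 0.0896. Of all tested genes, 0.0599% had an adjusted p under 0.05.

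By sign alone, on the deposited scaling, 19 of the 21 tested genes (90.5%) had a lower fitted level in oeDAZL cells, as did 65.3% of all tested genes. The median log2 fold change was -0.33 for the 21 genes and -0.08 for all tested genes, so a downward shift was shared by the whole table and 18 of the 21 genes lay below it. With median-of-ratios scaling the medians were -0.25 for the 21 genes and -0.003 for all tested genes. On the deposited scaling, both oeDAZL libraries were below both control libraries for 14 of the 21 genes and above them for 1. Among all tested genes the shares were 38.4% and 16.0%, and the counts were not repeated under other scalings. These counts cover only the genes that passed the minimum, and IFIT1 passed it through its control libraries. In bulk RNA, fewer cells expressing a gene and less RNA per cell cannot be told apart.

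**Figure D2:**
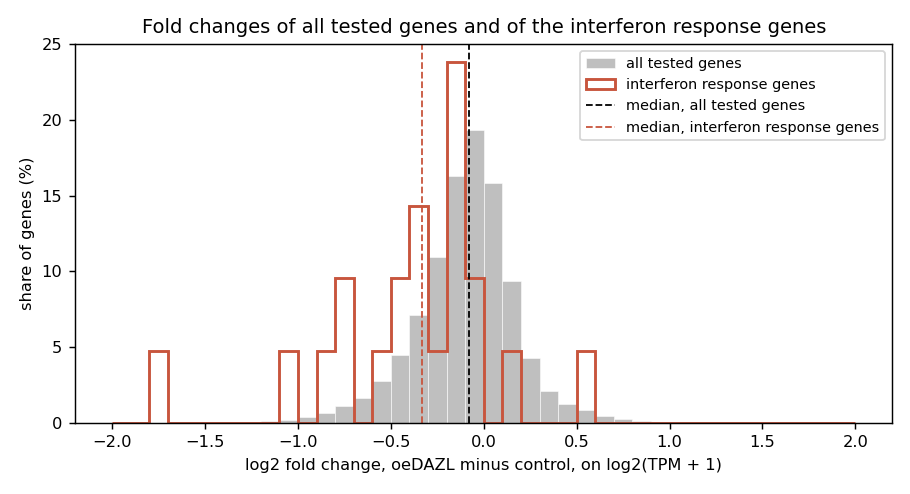
Distribution of log2 fold changes (oeDAZL minus control, on log2(TPM + 1)) as the share of genes in bins 0.1 wide, for all tested genes (grey) and the 21 tested interferon response genes (red outline). Dashed lines mark the medians, -0.08 for all tested genes and -0.33 for the interferon response genes; 10 genes of the whole table lie outside the plotted range.

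Of the 5 sensors and adaptor genes, MAVS, the mitochondrial adaptor on which RIG-I and MDA5 converge, was the most abundant. MAVS was at 39.2 and 38.2 TPM in the controls and at 35.3 and 33.6 TPM in oeDAZL cells. The groups did not overlap, and the log2 fold change of -0.16 ± 0.07 (SE, 95% interval -0.34 to 0.01) did not pass the test (adjusted p = 0.274). IFIH1, which encodes the long double-stranded RNA sensor MDA5 (chr2:162267074-162318684), was at 2.30 and 2.26 TPM in the controls and at 1.15 and 1.28 TPM in oeDAZL cells. Both oeDAZL values lay below both control values, with a log2 fold change of -0.56 ± 0.21 (95% interval -1.07 to -0.06; unadjusted p = 0.0335 and adjusted p = 0.213 in limma). The unadjusted p of IFIH1 was above 0.05 whichever single library was left out, at 0.0732 to 0.134.

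DDX58, which encodes RIG-I, the sensor of RNA with a 5′ triphosphate, was at 2.52 and 3.89 TPM in the controls and at 2.59 and 3.52 TPM in oeDAZL cells. Both oeDAZL values of DDX58 lay between the 2 control values. DDX58 shares 43.2% of its exonic bases with another annotated gene on the same strand, and the authors' assignment of such reads is not given in the sources used here. The remaining sensors were under 1 TPM in each library. DHX58, which encodes LGP2, a regulator of the other helicases, was listed at 0.263 and 0.179 TPM in the controls and at 0 in both oeDAZL libraries. TLR3 was between 0.0547 and 0.183 TPM in the 4 libraries, with overlapping groups.

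All 5 transcription factor genes were expressed. STAT2, the subunit of the interferon-activated complex that carries its activation domain (chr12:56341597-56360203), was at 54.5 and 50.3 TPM in the controls and at 36.8 and 41.1 TPM in oeDAZL cells. Both oeDAZL values were below both control values, and the log2 fold change was -0.42 ± 0.09 (95% interval -0.63 to -0.21; unadjusted p = 0.00246 and adjusted p = 0.1002 in limma). IRF9, its DNA-binding partner, was at 11.3 and 8.15 TPM in the controls and at 7.08 and 7.42 TPM in oeDAZL cells. The IRF9 groups did not overlap, but control replicate 2 lay close to the oeDAZL values (unadjusted p = 0.0752 and adjusted p = 0.294 in limma), and 23.9% of the exonic bases are shared with another gene on the same strand.

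IRF3, the constitutive factor activated downstream of MAVS and TLR3, was the most abundant of the factors, at 86.5 and 79.5 TPM in the controls and 76.9 and 75.2 TPM in oeDAZL cells. On the deposited scaling the IRF3 groups did not overlap. The log2 fold change of -0.12 ± 0.07 (95% interval -0.29 to 0.04, adjusted p = 0.357 in limma) did not pass the test. Without control replicate 2 it was -0.18, and without control replicate 1 it was -0.06. With median-of-ratios scaling of all 4 libraries it was -0.04. IRF3 shares 19.4% of its exonic bases with BCL2L12 on the opposite strand, and the strand setting of the counting is not given in the sources used here. IRF7, the interferon-induced amplifier of interferon production, was at 11.4 and 6.61 TPM in the controls and at 5.602 and 6.38 TPM in oeDAZL cells. For IRF7 the separation of the groups was narrow and was seen on the deposited scaling, and control replicate 1 alone stood apart. IRF1, an inducible factor of both interferon and cytokine responses, was at 10.8 and 12.2 TPM in the controls and at 10.1 and 10.8 TPM in oeDAZL cells, with overlapping groups.

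BST2 had the largest fitted difference of the 21 tested genes. It encodes tetherin, which holds budding enveloped viruses on the cell surface, and lies at chr19:17402939-17405630. The control libraries held 39.8 and 20.4 TPM and the oeDAZL libraries 7.998 and 7.65 TPM. The control libraries differed from each other by more than the oeDAZL libraries did, yet even the lower control value was above both oeDAZL values. BST2 fell by 1.74 ± 0.28 on the log2 scale (SE, 95% interval -2.43 to -1.06; unadjusted p = 0.000735 and adjusted p = 0.0896 in limma), and the ratio of the mean TPM, control to oeDAZL, was 3.85. Without control replicate 1, the log2 fold change of BST2 was -1.28, and without control replicate 2 it was -2.21. No annotated exon of another gene overlaps BST2.

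The other membrane factors are the IFITM genes, a cluster on chromosome 11 whose proteins block fusion of virus with the cell membrane. IFITM3 was at 252 and 219 TPM in the controls and at 203 and 229 TPM in oeDAZL cells. IFITM2 was at 62.2 and 66.5 TPM in the controls and at 54.7 and 66.4 TPM in oeDAZL cells. The groups overlapped for both genes, with log2 fold changes of -0.13 ± 0.09 (95% interval -0.35 to 0.09; adjusted p = 0.472) for IFITM3 and -0.09 ± 0.10 (95% interval -0.34 to 0.16; adjusted p = 0.647) for IFITM2 in limma. The sign for IFITM2 turned to 0.045 without oeDAZL replicate 1. For IFITM3 the log2 fold change was -0.02 without control replicate 1, -0.04 without oeDAZL replicate 1, -0.21 without oeDAZL replicate 2 and -0.23 without control replicate 2, where alone its unadjusted p in limma was under 0.05.

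IFITM1 was at 39.5 and 33.3 TPM in the controls and at 28.4 and 28.7 TPM in oeDAZL cells. Its groups did not overlap, and the log2 fold change was -0.33 ± 0.10 (95% interval -0.58 to -0.09; unadjusted p = 0.0144 and adjusted p = 0.163 in limma). The unadjusted p was 0.0537 without oeDAZL replicate 1. The 3 IFITM genes are close paralogs, and IFITM1 also shares 21.1% of its exonic bases with a gene on the same strand, so how reads were divided among them is uncertain. Whether IFITM1 differed from IFITM2 and IFITM3 in its change was not tested.

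**Figure D3:**
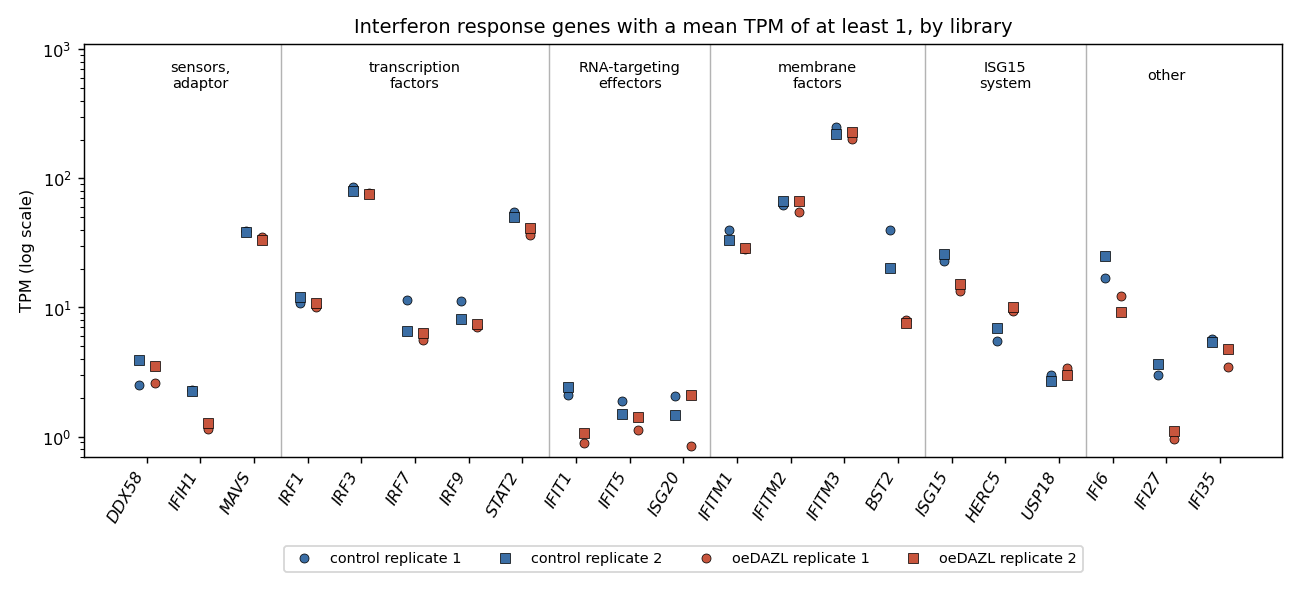
TPM of the 21 genes with a mean of at least 1 TPM in each of the 4 libraries, on a log axis, grouped by role. Blue symbols are control and red symbols oeDAZL, with circles for replicate 1 and squares for replicate 2. BST2 falls from 39.8 and 20.4 TPM to 7.998 and 7.65 TPM, whereas IFITM3, IFITM2 and IRF1 overlap between the groups.

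ISG15, the ubiquitin-like modifier that is conjugated to proteins during the interferon response, was the most abundant of its system. ISG15 (chr1:1001138-1014540) was at 22.9 and 25.9 TPM in the controls and at 13.5 and 15.3 TPM in oeDAZL cells. Each group was tight and the groups were well apart, with a log2 fold change of -0.72 ± 0.11 (95% interval -0.99 to -0.46; unadjusted p = 0.000528 and adjusted p = 0.0896 in limma). The unadjusted p of ISG15 was the smallest of the 21 tested genes, and its log2 fold change stayed between -0.81 and -0.63 under the alternatives tried, but it is under the fold of 2 that a call requires.

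HERC5, the main ligase that attaches ISG15 to its targets, had the opposite sign. HERC5 (chr4:88457119-88506163) was at 5.48 and 6.94 TPM in the controls and at 9.43 and 10.02 TPM in oeDAZL cells. Both oeDAZL values were above both control values, and the log2 fold change was 0.58 ± 0.15 (95% interval 0.22 to 0.94; unadjusted p = 0.00749 and adjusted p = 0.131 in limma). USP18, the protease that removes ISG15 and dampens receptor signalling, was at 3.01 and 2.71 TPM in the controls and at 3.37 and 2.98 TPM in oeDAZL cells, with overlapping groups. The modifier and its ligase had fitted differences of opposite sign, and the 95% intervals of the log2 fold changes of ISG15 and HERC5 do not meet.

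IFI27 and IFI6 encode small interferon-induced proteins of mitochondria and internal membranes. IFI27 (chr14:94104836-94116695) was at 3.01 and 3.63 TPM in the controls and at 0.961 and 1.10 TPM in oeDAZL cells. IFI27 fell by 1.09 ± 0.21 on the log2 scale (95% interval -1.59 to -0.58; unadjusted p = 0.00178 and adjusted p = 0.0951 in limma), and its groups were far apart for their spread. Without control replicate 2 the log2 fold change was -0.99, under the fold of 2, and the call was lost.

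IFI6 (chr1:27666064-27672212) was at 17.0 and 25.2 TPM in the controls and at 12.2 and 9.27 TPM in oeDAZL cells. The groups did not overlap, and the log2 fold change was -0.90 ± 0.21 (95% interval -1.40 to -0.39; unadjusted p = 0.00477 and adjusted p = 0.116 in limma). Without control replicate 1 the log2 fold change was -1.17, and without oeDAZL replicate 1 it was -1.08, past the fold of 2, whereas it was -0.63 without control replicate 2 and -0.71 without oeDAZL replicate 2. IFI6 shares 23.1% of its exonic bases with LINC02574 on the same strand. IFI35, which encodes an interferon-induced leucine zipper protein, was at 5.68 and 5.37 TPM in the controls and at 3.48 and 4.77 TPM in oeDAZL cells, with an unadjusted p of 0.0909 and an adjusted p of 0.318 in limma.

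**Figure D4:**
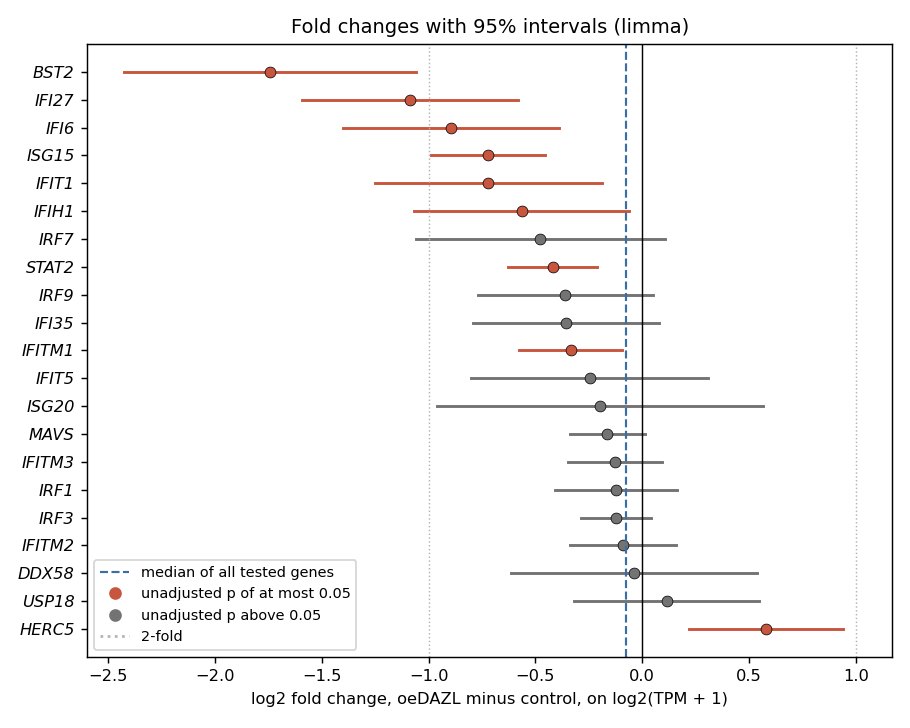
Log2 fold changes (oeDAZL minus control, on log2(TPM + 1)) of the 21 tested genes with 95% intervals from limma, in order of size. Red marks an unadjusted P of at most 0.05, the blue dashed line the median of all tested genes (-0.08) and dotted lines a fold of 2; only BST2 and IFI27 lie beyond the lower dotted line, and HERC5 lies at 0.58.

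Of the 12 effector genes that act on RNA or block replication, 11 were above 0 in at least 1 library and 3 reached a mean of 1 TPM. IFIT1, which binds viral RNA lacking the host cap modification and lies at chr10:89392546-89406487, was at 2.09 and 2.43 TPM in the controls and at 0.891 and 1.07 TPM in oeDAZL cells. The groups were separate, with a log2 fold change of -0.72 ± 0.22 (95% interval -1.25 to -0.19, unadjusted p = 0.0160 and adjusted p = 0.167 in limma). IFIT1 passed the minimum for testing through its controls, since its oeDAZL mean was 0.978 TPM. The unadjusted p was 0.0614 without control replicate 2 and 0.0759 without oeDAZL replicate 1. IFIT5, a related RNA-binding protein, was at 1.88 and 1.501 TPM in the controls and at 1.11 and 1.42 TPM in oeDAZL cells. ISG20, an RNA exonuclease, was at 2.06 and 1.47 TPM in the controls and at 0.839 and 2.11 TPM in oeDAZL cells, the widest spread between oeDAZL libraries relative to level among the tested genes.

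The remaining 14 detected genes had a mean under 1 TPM and were not tested. Both oeDAZL libraries were below both control libraries for 7 of them and above for 0. Among all genes detected under that minimum, the shares were 18.1% and 8.43%. Of the 7, DHX58, OAS2 and IFI44L passed the detection criterion only through the controls, so they could not have been higher in oeDAZL cells. MX2 passed it only through an oeDAZL library. MX1, a dynamin-like GTPase that blocks viral nucleocapsids, was at 1.08 and 0.954 TPM in the controls and at 0.157 and 0.142 TPM in oeDAZL cells. OAS1, a double-stranded RNA-activated synthase that switches on RNase L, was at 0.676 and 0.718 TPM in the controls and at 0.0484 and 0.233 TPM in oeDAZL cells. Both genes showed separate groups, and the mean of MX1 over the 4 libraries was 0.584 TPM. OAS2 was listed at 0.0752 and 0.270 TPM in the controls and at 0 in both oeDAZL libraries, and OAS3 lay between 0.147 and 0.216 TPM in the 4 libraries.

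A setting with a pseudocount of 0.1 and no minimum was chosen after the values were seen. Under it the log2 fold change was -2.17 ± 0.46 for MX1 and -1.84 ± 0.61 for OAS1. It was -1.67 ± 0.37 for DHX58, which was detected only through the controls. With DHX58 at 0 in both oeDAZL libraries, that value depends on the pseudocount and no oeDAZL spread was measured. The adjusted p in limma was 0.291 for MX1, 0.375 for OAS1 and 0.299 for DHX58. In the same fit, the other genes detected under the minimum ranged from -1.35 for OAS2 to 0.25 for RSAD2. IFIT3, RSAD2, XAF1, IFIT2, SAMD9 and MX2 did not separate the groups, and the highest of their values was 0.317 TPM for IFIT3. SAMD9L was at 0.0597 and 0.0522 TPM in the controls and at 0.0179 and 0.0291 TPM in oeDAZL cells, and IFI44L was listed at 0.0182 and 0.0214 TPM in the controls and at 0 in both oeDAZL libraries.

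**Figure D5:**
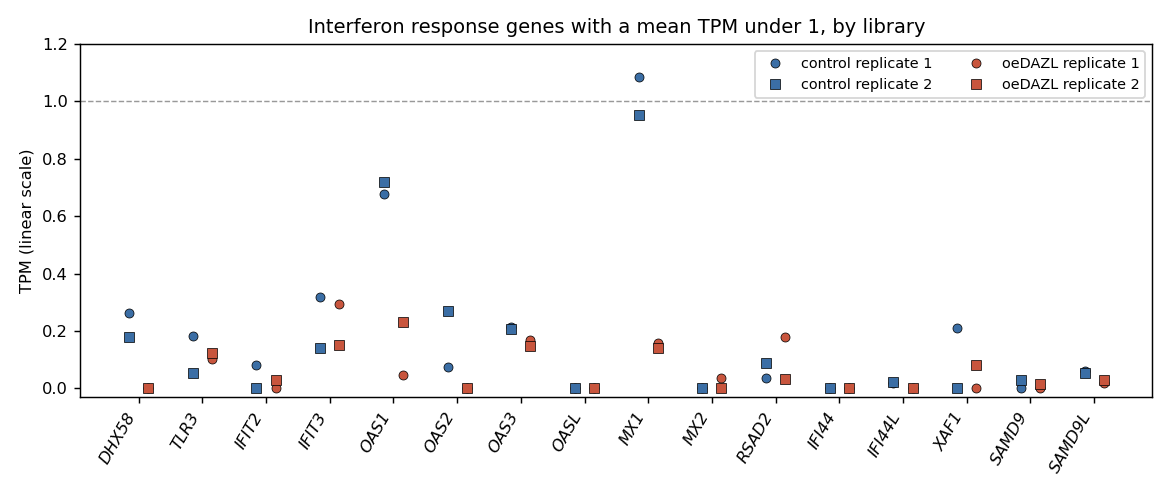
TPM of the 16 genes with a mean under 1 TPM in each of the 4 libraries, on a linear axis, with control in blue and oeDAZL in red, circles for replicate 1 and squares for replicate 2. The dashed line marks 1 TPM, the minimum mean for testing; MX1 and OAS1 stand above the others in the controls, and OASL and IFI44 are at 0.

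Outside the group, 91 further genes of the pathway were listed, of which 74 were above 0 in at least 1 library and 58 were tested. An unadjusted P of at most 0.05 in limma was reached by 12 of the 58 with a lower and 3 with a higher level. Of all tested genes, 15.2% were lower and 5.02% higher by that criterion. Of the 58 genes, 0 had an adjusted p under 0.05. None of them met the call rule. IFNB1, which encodes interferon beta, was listed at 0 in all 4 libraries. Of the 21 ligand genes, 6 were above 0 in at least 1 library and IFNA13 alone was tested. IFNA13 shares nearly its whole sequence with IFNA1, so its 0.972 to 2.12 TPM is uncertain. The other detected ligands were under the minimum and are named after their values were seen. IFNE was at 0.706 and 1.09 TPM in the controls and at 0.208 and 0.343 TPM in oeDAZL cells. The groups of IFNA1, IFNA2, IFNA6 and IFNW1 overlapped.

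The receptor and kinase genes were all expressed. IFNAR1 and IFNAR2, the subunits of the type I receptor, lay at 11.6 to 13.1 TPM and at 7.31 to 9.85 TPM in the 4 libraries, and the kinase gene JAK1 at 28.3 to 30.6 TPM. TYK2, the kinase bound to IFNAR1, was at 56.1 and 49.8 TPM in the controls and at 37.9 and 37.5 TPM in oeDAZL cells. Its groups did not overlap, with a log2 fold change of -0.48 ± 0.08 (unadjusted p = 0.000987 and adjusted p = 0.0896 in limma). TBK1, the kinase of IRF3, lay at 25.4 to 30.2 TPM with overlapping groups.

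Of the other nucleic acid sensors, ADAR, which edits double-stranded RNA, was at 157 and 149 TPM in the controls and at 135 and 138 TPM in oeDAZL cells. Its log2 fold change was -0.16 ± 0.06 (unadjusted p = 0.0282 and adjusted p = 0.201 in limma). EIF2AK2, which encodes PKR, the kinase that halts translation on double-stranded RNA, lay at 19.8 to 22.2 TPM, with a log2 fold change of -0.13 (95% interval -0.33 to 0.07). Of the genes of DNA sensing, CGAS and STING1 were at most 0.0767 and 0.367 TPM. The following were chosen after their values were seen. IFI16, another DNA sensor, was at 17.2 and 10.2 TPM in the controls and at 8.11 and 7.55 TPM in oeDAZL cells (log2 fold change -0.70, adjusted p = 0.184 in limma). Among further interferon-induced genes with a lower level, the log2 fold change was -0.77 for SP110, -0.63 for HELZ2, -0.62 for UBE2L6 and -0.53 for LGALS3BP, with adjusted p of 0.162, 0.104, 0.128 and 0.0962 in limma. The 3 genes with a higher level at an unadjusted P of at most 0.05 were SOCS3, a suppressor of cytokine signalling (log2 fold change 0.45, adjusted p = 0.0896 in limma), EPSTI1 (0.38, adjusted p = 0.155 in limma) and PLSCR1 (0.38, adjusted p = 0.126 in limma). Of 28 further interferon-induced genes, 20 were tested, of which 7 had a lower and 2 a higher level at an unadjusted P of at most 0.05. By that criterion 15.2% of all tested genes were lower and 5.02% higher.

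Markers of other cells were read beside these values. The 8 leukocyte markers summed to 0.539 to 1.51 TPM in the 4 libraries, none was tested, and CD3E was listed at 0. The 5 endothelial markers summed to 20.6 and 21.8 TPM in the controls and to 16.3 and 18.0 TPM in oeDAZL cells. Among them PECAM1 was listed at 0, CDH5 and TEK lay at 1.92 to 6.72 TPM, and KDR was at 12.6 and 12.7 TPM in the controls and at 8.39 and 8.23 TPM in oeDAZL cells (log2 fold change -0.55, unadjusted p = 0.00202 in limma). The 6 mesenchyme markers summed to 3500 and 3703 TPM in the controls and to 3144 and 3104 TPM in oeDAZL cells. At an unadjusted P of at most 0.05 in limma, 3 of the 6 were lower and 0 higher. The 3 were the collagen genes COL3A1 (log2 fold change -1.25, adjusted p = 0.0344 in limma), COL1A1 (-0.55) and COL1A2 (-0.19). The other fitted differences were -0.20 for PDGFRA, 0.10 for TWIST1 and 0.19 for VIM. The 6 amnion and trophoblast markers summed to 1897 and 1992 TPM in the controls and to 2229 and 2215 TPM in oeDAZL cells. By the same criterion 2 were lower, CGA (log2 fold change -1.18) and ISL1 (-0.49), and 1 was higher, HAND1 (0.32). CGA also met the call rule. HAND1 was at 958 and 1042 TPM in the controls and at 1250 and 1247 TPM in oeDAZL cells. Fitted differences of the rest were -0.05 for GATA3, 0.005 for TFAP2A and 0.14 for KRT7. The 6 pluripotency markers summed to 546 and 495 TPM in the controls and to 497 and 477 TPM in oeDAZL cells. By the same criterion, 2 of the 6 were higher, POU5F1 (log2 fold change 0.79) and TDGF1 (0.82), and 0 were lower, with fitted differences of -0.60 for SOX2, -0.14 for LIN28A and -0.11 for DPPA4. The part of these cell states in the levels of BST2, ISG15 and the other interferon response genes was not tested.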

How the data were processed

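RNA-seq of 2 control and 2 oeDAZL libraries was analysed, and the miRNA libraries of the series were not analysed here. The authors deposited TPM per gene, with 1 column per library. Their methods name FastQC, Trim Galore, HISAT2 with hg38, uniquely mapped reads and StringTie. The submitters' processing notes give HISAT2 2.1.0, StringTie 2.1.4 and Trim Galore 0.6.4, and the methods state a different version of Trim Galore, and the annotation release is not given in the sources used here. TPM keeps no depth, so no counting interval is given, and 0 states a listed value, not absence. Left out were 45 entries for pseudoautosomal copies on chromosome Y and 18 repeated entries.

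The deposited TPM values were transformed to log2(TPM + 1) and analysed without covariates over the 16687 genes whose mean reached 1 TPM, by lmFit and trended eBayes of limma 3.58.1 (R 4.3.3), and p-values were adjusted by Benjamini-Hochberg over all of them. The thresholds of the call are those of the study's methods, whose own test needs counts. An exact permutation test of 2 against 2 libraries cannot give a p under 0.333. The procedure was tested on simulated data. The genes and lists were chosen with earlier results of these data known. Fold changes were given for tested genes with an unadjusted P of at most 0.05 and for the 8 with the highest mean TPM, 13 genes in all. Other pathway genes were named by a fixed list, of which 1 gene is not reported here, or, where stated, after their values were seen. Gene positions and exon overlaps are from GENCODE 44 on hg38 and promoters from RefSeq. Protein sequences were not used here.

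Alternatives were a pseudocount of 0.1, no minimum TPM, a minimum mean of 5, median-of-ratios scaling, quantile normalization, TPM rescaled without mitochondrial genes, no trend, a replicate block, an adjusted p in place of the call rule and each library left out in turn.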

Additional observations from a re-analysis of the deposited data

How the results depend on the processing

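Of 166 values of the 13 genes given with fold changes under the alternatives, 152 kept their direction and their side of an unadjusted p of 0.05, 9 moved above that p, 4 moved below it and 1 changed sign, that of IFITM2, which ranged from -0.23 to 0.045 with a library left out. Of the 37 genes, the 2 called (BST2 and IFI27) became 1 (BST2) with a minimum mean of 5 TPM, where IFI27 is not tested, and 1 (BST2) with quantile normalization. They became 0 with an adjusted p under 0.05 in limma in place of the call rule. With a pseudocount of 0.1 and no minimum, an alternative chosen after seeing the data, 6 of the 35 genes then fitted were called. The 6 were BST2, DHX58, IFI27, IFIT1, MX1 and OAS1, and DHX58 was at 0 in both oeDAZL libraries. Over all genes, 340 were called higher and 882 lower in that fit. It held the 16687 genes of the main fit and 16564 detected genes with a mean under 1 TPM. Leaving out each library gave 1 to 3 called genes, with BST2 alone without control replicate 2, where 1 of the 21 tested genes of the group and 673 of all 16687 had an adjusted p under 0.05 in limma. The median log2 fold change of the tested genes was -0.21 with quantile normalization, beside a median of all tested genes of 0.01, and -0.39 to -0.20 with a library left out. Scaling also moved the split of calls over all tested genes, from 21 higher and 94 lower to 41 and 52 with quantile normalization and to 25 and 75 with median-of-ratios scaling; the cause was not tested. The deviations of same-numbered libraries from their group means had a correlation of -0.10 across genes, the labels name no pairing, and the numbers were not taken to pair the libraries. A replicate block left the calls at 2. At an unadjusted P of at most 0.05 in limma, 7 genes were lower in place of 8, IFIH1 being the one lost. The block cannot change a fold change here, so the median of -0.33 was fixed in advance. Dropping or raising the minimum TPM at the same pseudocount, or dropping the trend, also leaves the fold change of a gene as it was. In these settings only the P could move among the 166 values. With the numbers crossed in the replicate block, added after seeing the data, 2 of the 37 genes were called, 28 genes were called higher and 107 lower over all tested genes, and 5 of the 37 had an adjusted p under 0.05, as did 1089 of all 16687 tested genes. With unknown read depth, values under 1 TPM have no stated precision.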

Other observations

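The ISRE core was also examined in tested genes outside the group, a comparison chosen after the values were seen. Of the tested genes with a promoter window, 265 held the core and 10527 did not. Their median log2 fold change was -0.04 with the core and -0.07 without it. An unadjusted P of at most 0.05 in limma with a lower level in oeDAZL cells was reached by 12.1% of the genes with the core and by 15.3% of those without it, and both oeDAZL libraries were below both control libraries in 38.1% and 39.2%. Within the group, all but STAT2 of the 9 genes with an unadjusted P of at most 0.05 held the core. The 9 include HERC5, which was higher in oeDAZL cells. Of the 8 other tested genes with a window, 3 held the core. These are counts of letters in windows, split by the P of these same data, and no test was made of them. The windows of DDX58 and IFI35, counted without the core, hold GAAA repeats at a closer spacing than the pattern asks for.

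Leaving out the IFITM genes, the summed TPM of the effectors was 106 and 98.0 in the controls and 54.7 and 56.6 in oeDAZL cells. Without BST2 as well it was 65.9 and 77.6 in the controls and 46.7 and 48.9 in oeDAZL cells, with the groups still separate. ISG15 and IFI6 had the highest mean TPM among the genes of that sum, so it is not independent of their differences. The IFITM genes left out include IFITM3 and IFITM2, whose groups overlapped.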
